A study of Homo sapiens with 20 samples.

Results

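The genes of the CD28 receptor family and of its B7 ligands that are named as immune checkpoints were examined in human Jurkat T lymphoblasts. They are the receptors CD28, CTLA4, ICOS, PDCD1 and BTLA and the ligands CD274 and CD276, chosen by gene symbol, and they are 7 of the 60719 genes and 42 of the 232184 isoforms in the deposited tables. RNA was sequenced from WT Jurkat cells, an established leukemia line, and from JinB8, a somatic mutant derived from it that is deficient in CD47 and is called CD47- here. Each line gave 10 libraries: untreated (UT) cells at 1 h, and cells at 1, 3 and 6 h plated on immobilized anti-CD3 and anti-CD28 (4 μg/mL of the latter), on both antibodies with 1 μg/mL thrombospondin-1 (TSP1), or with TSP1 alone. All cells were held in serum-free medium during treatment. JinB8 is a single mutant line, so anything else by which that line differs from WT cannot be told apart from its CD47 status. Each condition was sequenced once, and among the unactivated libraries those at 3 and 6 h all received TSP1, so p-values measure the spread among libraries of unlike treatment or time. CD28 was also the target of an antibody on the activating plates.

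CD28 binds CD80 and CD86 on antigen-presenting cells and gives the co-stimulatory signal that accompanies the T cell receptor. CTLA4 competes for these ligands and restrains activation, ICOS is an inducible co-stimulator that binds ICOSLG, PDCD1 encodes PD-1, whose ligands are CD274 (PD-L1) and PDCD1LG2, and BTLA is an inhibitory receptor that binds TNFRSF14. CD276 (B7-H3) is a B7 protein without an agreed T cell receptor. PD-1 and ICOS are known for rising on T cells after antigen receptor stimulation, whereas CD28 is present on most resting T cells.

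Expression is given as CPM, the expected count relative to the TMM-scaled library size. The 10 WT libraries held 20483642 to 31737616 counts each and those of CD47- 16107921 to 28525524, and 3 counts, the limit that a count of 0 allows, corresponded to 0.0979 to 0.156 CPM. CD47 itself was measured at 253 to 372 CPM in the WT libraries and at 124 to 165 CPM in the CD47- libraries, so both labels were met by non-overlapping values although CD47 transcripts remained in the mutant. All 11 T cell markers listed were measurable in both lines. Of these, 5 were higher in CD47- cells, led by CD2 (log2 fold change 1.43, adjusted p = 1.20e-10, edgeR), and 2 were lower, the T cell receptor constant genes TRAC (-3.08, adjusted p = 4.57e-12) and TRBC1 (-0.80, adjusted p = 1.78e-05). These calls stand beside 40.4% of all genes called between the lines. The 5 B cell markers summed to 35.6 to 56.0 CPM in WT and 5.86 to 13.7 CPM in CD47- cells, most of it from CD79A, whereas MS4A1 and PAX5 reached at most 0.151 and 0.227 CPM in any WT library. The 6 mesenchymal markers summed to 1.89 to 8.03 CPM in WT and 7.70 to 13.02 CPM in CD47- cells. The higher sum came from COL1A1 and PDGFRB, whereas COL1A2, COL3A1, DCN and LUM had lower means in CD47- cells and were too scarce to test. Of 5 epithelial markers 2 were tested. KRT8 was higher in CD47- cells (0.908 ± 0.342 and 1.92 ± 0.498 CPM, log2 fold change 1.07, adjusted p = 0.000278, edgeR), and KRT18 was not called. Of 6 myeloid markers 2 were tested and 0 called. No listed B cell or mesenchymal marker was at 0 in all libraries, and the part of these differences in the results was not tested.

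CD28, CTLA4 and ICOS lie side by side on the long arm of chromosome 2 in GRCh38, all on the plus strand, at chr2:203706475-203738912, chr2:203853888-203873965 and chr2:203936763-203961577. The gap between CD28 and CTLA4 is 114975 bp and that between CTLA4 and ICOS 62797 bp. PDCD1 is at the end of the same chromosome on the minus strand (chr2:241849884-241858894). BTLA is at chr3:112463966-112499472 on the minus strand, CD274 at chr9:5450503-5470566 and CD276 at chr15:73683966-73714514, both on the plus strand. These spans are from GENCODE 44, a later release than the counts were made with, and those CTLA4 isoforms of the deposited tables that could be placed start at 203867771 or later, inside the span given.

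The bases just upstream of the 4 genes that could be tested are shown because the abundance of these genes differed by line or by time. They are from RefSeq (GRCh38.p14), 5′ to 3′ on the strand of the gene, up to 250 bases before the RefSeq start and ending before the first annotated exon. Capitals mark matches, on either strand, to the NFAT core GGAAA, the AP-1 motif TGANTCA, the RUNX motif TGTGGT, the EGR motif GCGTGGGCG or the TATA box TATAAA, and no matches overlapped.
CD28, chr2:203706389-203706474: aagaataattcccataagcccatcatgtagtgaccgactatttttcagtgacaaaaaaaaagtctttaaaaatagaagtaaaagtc
PDCD1, chr2:241858895-241859144: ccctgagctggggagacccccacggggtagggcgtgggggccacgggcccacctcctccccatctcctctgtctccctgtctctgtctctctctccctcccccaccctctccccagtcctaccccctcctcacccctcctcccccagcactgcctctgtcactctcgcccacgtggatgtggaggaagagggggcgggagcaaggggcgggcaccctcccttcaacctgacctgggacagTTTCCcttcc
ICOS, chr2:203936513-203936762: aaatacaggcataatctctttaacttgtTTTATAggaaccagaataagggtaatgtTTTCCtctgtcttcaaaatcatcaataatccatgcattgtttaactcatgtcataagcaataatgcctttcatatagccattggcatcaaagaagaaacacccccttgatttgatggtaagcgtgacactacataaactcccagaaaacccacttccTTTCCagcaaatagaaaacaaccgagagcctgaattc
CD274, chr9:5450292-5450502: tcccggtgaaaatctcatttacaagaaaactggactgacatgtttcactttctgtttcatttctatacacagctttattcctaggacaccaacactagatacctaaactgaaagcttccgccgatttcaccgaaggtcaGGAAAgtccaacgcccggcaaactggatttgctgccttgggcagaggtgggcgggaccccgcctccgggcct
The 86 bases printed for CD28 held none of the 5 motifs, and 30.2% of them were G or C. The NFAT core is in 26.2% of promoters over this length. The CD28 stretch ends at 203706474, before the first exon of the transcript CD28-202. The RefSeq start, also that of the main transcript CD28-201, is at 203706639, and the bases between were not searched. Upstream of PDCD1, where 68.4% of bases were G or C, the NFAT core occurred 1 time, beginning 10 bases before the start. The ICOS stretch held 2 NFAT cores, at 194 and 37 bases before the start, and 1 TATA box at 222 bases, with 36.8% G or C. The CD274 stretch held 1 NFAT core at 111 bases and had a G and C share of 49.8%. It ends at 5450502, and the bases from there to the RefSeq start at 5450542 were not searched. The NFAT core is short and is found in 55.6% of the 35116 RefSeq promoters over 250 bases and in 49.9% over 211 bases, so these matches only describe the letters. The TATA box letters are found in 10.7% of promoters over 250 bases. AP-1, RUNX and EGR matches, present in 6.57%, 10.98% and 0.720% of promoters over that length, were not among the letters of these windows.

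Levels per length place CD28 far above the other 6 genes in the mutant. Dividing isoform counts by transcript length and scaling each library to the same total (TPM), CD28 was at 8.996 ± 3.40 TPM in WT and 54.5 ± 8.08 in CD47- cells (mean ± SD, n = 10 libraries). PDCD1 followed at 4.59 ± 4.46 and 4.29 ± 3.64 TPM. CD274 came next in WT at 1.49 ± 0.328 TPM, ahead of ICOS at 0.628 ± 0.327 in all 10 libraries.

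In CD47- cells the order of these neighbours was not resolved, with ICOS at 0.657 ± 0.380 and CD274 at 0.651 ± 0.228 TPM and ICOS the higher in 5 of 10 libraries. BTLA was at 0.118 ± 0.0432 TPM in WT and 0.199 ± 0.165 in CD47- cells, which depended on the length used. With the longest transcript of the gene its means were 0.106 and 0.116 TPM. CTLA4 (0.0311 and 0.00957 TPM) and CD276 (0.0160 and 0.0537 TPM) came last, and their ranges overlapped in each line. In WT the range of CD28 overlapped that of PDCD1, although CD28 was the higher in 9 of 10 libraries, whereas in CD47- cells the lowest CD28 value exceeded the highest PDCD1 value.

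**Figure D1:**
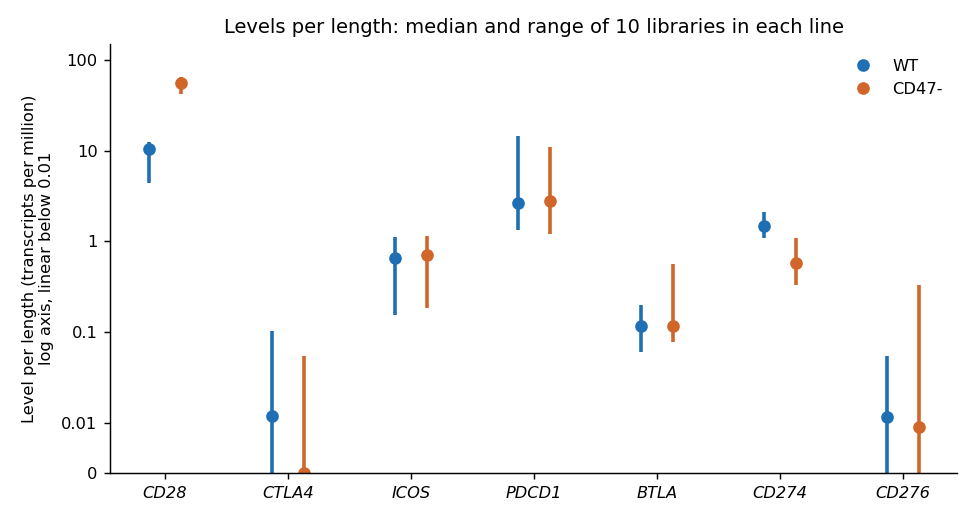
Level per length (TPM, logarithmic axis that is linear below 0.01) of the 7 genes in WT (blue) and CD47- (orange) cells, with points for the median and lines for the range of 10 libraries. The ranges of CD28 and of CD274 do not overlap between the lines, and CTLA4 and CD276 reach 0 in both.

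The comparison of the lines asked how the loss of CD47 goes with the levels of these genes across treatments. CD28 was higher and CD274 lower in CD47- cells, in opposite directions and in every matched pair of libraries, while ICOS and PDCD1 did not pass the test. Of the 7 genes, 4 had enough counts to be tested, and 2 of these were called by the edgeR quasi-likelihood test at an adjusted p below 0.05, beside 40.4% of all 16327 genes tested. With such a background, being called is not particular to these genes. In RNA from whole cultures, fewer cells that express a gene and less RNA per cell cannot be told apart.

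CD28 was at 25.04 to 65.8 CPM in the 10 WT libraries, with a median of 50.8 CPM. In the CD47- libraries it was at 203 to 262 CPM, with a median of 232 CPM. The lowest mutant library thus exceeded the highest WT library. The means were 45.1 ± 17.0 CPM for WT and, 5.10-fold higher, 230 ± 17.4 CPM for CD47- (SD, n = 10). The fitted log2 fold change was 2.35 (SE 0.18, adjusted p = 3.94e-10, edgeR), and CD28 was higher in 10 of 10 matched pairs.

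CD274, the PD-1 ligand, showed the reverse. It was at 3.72 to 5.63 CPM in WT libraries, with a median of 4.07, and at 1.06 to 2.09 CPM in CD47- libraries, with a median of 1.48. The ranges of CPM did not overlap here either. The means were 4.23 ± 0.53 and 1.53 ± 0.33 CPM (SD, n = 10), which is 2.77-fold higher in WT. The log2 fold change was -1.46 (SE 0.13, adjusted p = 3.09e-09, edgeR), with lower values in 10 of 10 pairs. In counts, CD274 had 82 to 132 in each WT library and only 22 to 62 in the mutant ones.

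PDCD1, the receptor for CD274, spanned 3.00 to 30.5 CPM for WT and 2.20 to 18.4 CPM for the mutant, with medians of 5.92 and 4.87 CPM. Its log2 fold change between the lines was -0.48 (SE 0.45, adjusted p = 0.428, edgeR), with lower values in 6 of 10 pairs. For ICOS, WT libraries ranged from 0.440 to 3.20 CPM and CD47- libraries from 0.528 to 2.75 CPM, with medians of 1.67 and 1.51. The log2 fold change of ICOS was -0.23 (SE 0.37, adjusted p = 0.650, edgeR). Both genes varied over time far more than between the lines, and their ranges overlapped.

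The other members were near the limit of detection. CTLA4 had 0 to 3 counts per library, 8 over the 10 WT libraries and 3 over the 10 CD47- libraries, and the ratio of CD47- to WT was 0.365 with a counting interval of 0.0623 to 1.52. All 8 WT counts and all 3 CD47- counts came from the 1 and 3 h libraries. BTLA was counted 71 times in WT and 66 times in CD47- libraries (0.301 ± 0.112 and 0.276 ± 0.157 CPM), and the ratio was 0.904 (0.637 to 1.28). CD276 had 5 and 8 counts in all, a ratio of 1.56 (0.449 to 6.04). No difference between the lines was detectable for these 3 genes at this depth. The intervals are exact at 95% and cover counting error only.

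**Figure D2:**
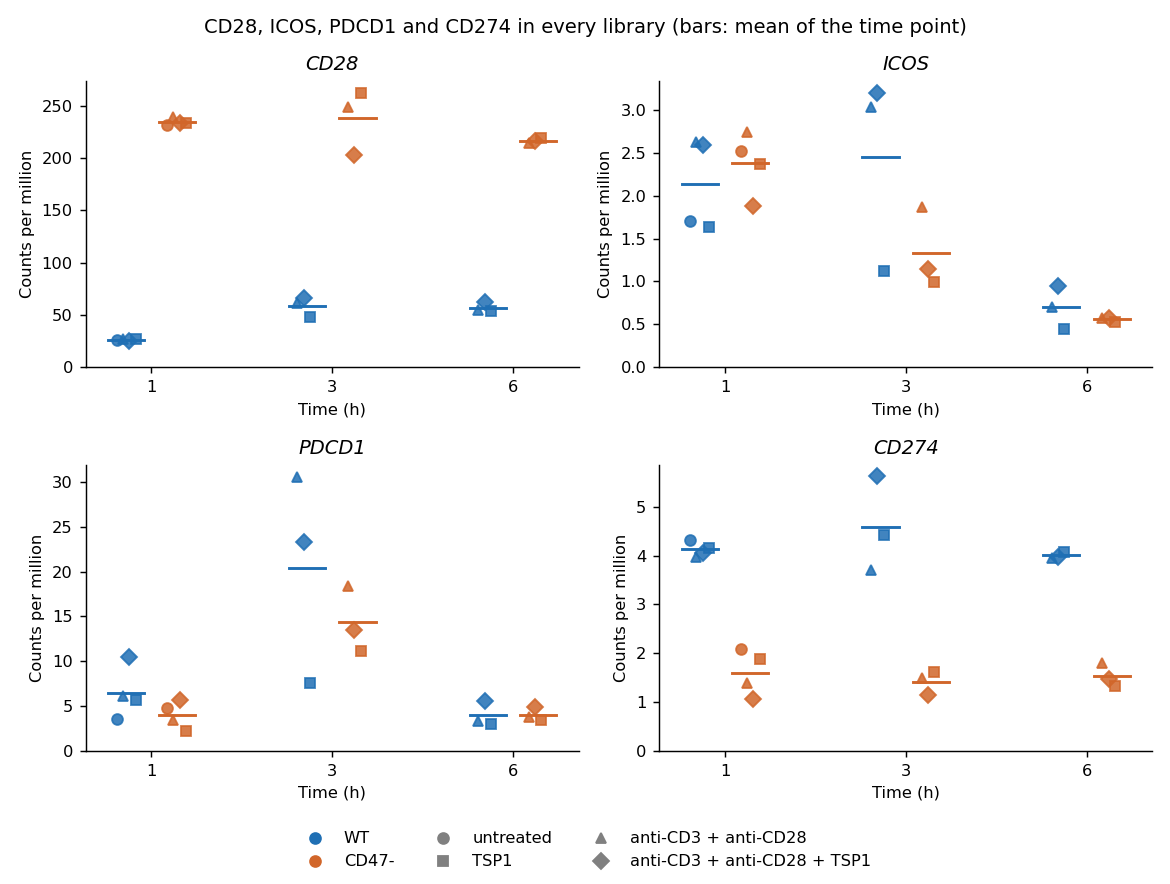
Expression (CPM, linear axes from 0) of CD28, ICOS, PDCD1 and CD274 in each of the 20 libraries by time (h), with color for the line, symbol for the treatment and bars for the mean of a time point. CD28 and CD274 separate the lines at every time, PDCD1 peaks at 3 h and ICOS is lowest at 6 h.

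The distance between the lines in CD28 was greatest at 1 h. CD28 rose with time in WT cells, and in CD47- cells it did not pass the test. At 1 h the 4 WT libraries were at 26.2 (UT), 26.8 (CD3+CD28), 25.04 (CD3+CD28+TSP1) and 27.1 CPM (TSP1). At 3 h the 3 libraries were at 61.6, 65.8 and 48.2 CPM in the order CD3+CD28, CD3+CD28+TSP1 and TSP1. At 6 h the 3 were at 55.0, 62.0 and 53.5 CPM in this order. Every later WT library was above every 1 h library, with or without the activating antibodies.

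In CD47- cells the 1 h libraries were at 231, 239, 234 and 233 CPM in the order above. The 3 h libraries were at 249, 203 and 262 CPM, and the 6 h libraries at 215, 216 and 219 CPM. The 3 h libraries lay on both sides of those at 1 h, and the 6 h libraries lay below them. Within pairs the log2 difference between the lines (pseudocount 0.5 CPM) averaged 3.13 at 1 h (3.08 to 3.20, 4 pairs), 2.02 at 3 h (1.62 to 2.43, 3 pairs) and 1.92 at 6 h (1.80 to 2.02, 3 pairs).

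In a model with terms for activation, TSP1 and time in each line, the WT log2 fold change of CD28 was 1.12 at 3 h (SE 0.10, adjusted p = 5.35e-07, edgeR) and 1.08 at 6 h (SE 0.10, adjusted p = 1.74e-07). The corresponding values in CD47- cells were 0.04 (SE 0.09, adjusted p = 0.775) and -0.09 (SE 0.09, adjusted p = 0.413). The difference between the lines was tested itself, as an interaction, and was -1.08 at 3 h (SE 0.13, adjusted p = 0.000400) and -1.18 at 6 h (SE 0.13, adjusted p = 3.03e-05). CD28 was the 1 member of 4 called in each of these interactions, beside 2.83% of all genes at 3 h and 15% at 6 h. When single libraries were left out, the call of CD28 held in all 20 fits of each, while the counts of all genes behind these shares, 462 and 2443, moved to 140 to 874 and to 1374 to 3754. Over the 6 other alternatives of each interaction these counts were 491 to 1072 and 2330 to 2714, with CD28 called throughout. The 1 h libraries include the untreated one, and time in culture after plating cannot be told apart from time on the antibodies or with TSP1 at the later times.

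PDCD1 peaked at 3 h in both lines. In WT cells it was at 3.61 (UT), 6.17 (CD3+CD28), 10.5 (CD3+CD28+TSP1) and 5.67 CPM (TSP1) at 1 h. At 3 h it was at 30.5, 23.3 and 7.57 CPM in the order CD3+CD28, CD3+CD28+TSP1 and TSP1, and at 6 h at 3.38, 5.52 and 3.00 CPM. Both activated WT libraries at 3 h stood above all others. In CD47- cells the 1 h values were 4.81, 3.46, 5.68 and 2.20 CPM, the 3 h values 18.4, 13.5 and 11.2 CPM and the 6 h values 3.78, 4.92 and 3.43 CPM. There the TSP1 library at 3 h, although not activated, was also above all 1 and 6 h libraries.

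The fitted log2 fold change of PDCD1 at 3 h was 1.37 in WT (SE 0.29, adjusted p = 0.00187, edgeR) and 1.77 in CD47- cells (SE 0.30, adjusted p = 0.000319). Without WT replicate 5, the CD3+CD28 library at 3 h, the WT value was 0.81 (adjusted p = 0.0482). At 6 h it was -0.90 in WT (SE 0.32, adjusted p = 0.0267) and -0.04 in CD47- cells (SE 0.32, adjusted p = 0.934). The fall at 6 h in WT rested on few libraries, since without replicate 3, 4, 8 or 9 of WT (CD3+CD28+TSP1 and TSP1 at 1 h, CD3+CD28 and CD3+CD28+TSP1 at 6 h) the adjusted p was 0.0966, 0.0765, 0.156 and 0.0598. The interaction of line and time was 0.40 at 3 h (adjusted p = 0.644) and 0.86 at 6 h (SE 0.45, adjusted p = 0.229).

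ICOS, the inducible co-stimulator, was lowest at 6 h in both lines. The WT libraries were at 1.71, 2.63, 2.59 and 1.64 CPM at 1 h in the order UT, CD3+CD28, CD3+CD28+TSP1 and TSP1. They were at 3.04, 3.20 and 1.12 CPM at 3 h and at 0.703, 0.946 and 0.440 CPM at 6 h. In CD47- cells ICOS was at 2.53, 2.75, 1.88 and 2.36 CPM at 1 h, at 1.87, 1.14 and 0.997 CPM at 3 h and at 0.572, 0.570 and 0.528 CPM at 6 h. No 6 h library of either line reached the lowest 1 h library of that line.

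The log2 fold change of ICOS at 6 h was -1.78 in WT (SE 0.25, adjusted p = 1.93e-05, edgeR) and -2.01 in CD47- cells (SE 0.26, adjusted p = 6.71e-06). At 3 h it was -0.02 in WT (SE 0.22, adjusted p = 0.943) and -0.79 in CD47- cells (SE 0.23, adjusted p = 0.0145), the latter lost without replicate 7 of CD47-, the TSP1 library at 3 h (-0.62, adjusted p = 0.0960). The interaction at 3 h was -0.76 (SE 0.32, adjusted p = 0.229) and at 6 h -0.23 (SE 0.36, adjusted p = 0.725), so a difference between the lines in these time courses was not shown.

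CD274 did not pass the test at any time. Its means at 1, 3 and 6 h were 4.13 ± 0.15, 4.59 ± 0.97 and 4.00 ± 0.064 CPM in WT (SD, n = 4, 3 and 3) and 1.604 ± 0.46, 1.42 ± 0.25 and 1.53 ± 0.25 CPM in CD47- cells. The fitted changes with time lay between -0.07 and 0.12 on the log2 scale in both lines, with SE from 0.18 to 0.21. Counting the 4 tested members, 2 were called at 3 h in WT and 2 in CD47- cells, beside 34.6% and 35.1% of all genes. At 6 h 3 members were called in WT and 1 in CD47- cells, beside 51.1% and 52.4% of all genes.

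For activation by anti-CD3 and anti-CD28, ICOS and PDCD1 had positive terms in WT cells that did not pass the adjusted threshold. ICOS was at 2.63 and 2.59 CPM in the activated WT libraries at 1 h against 1.71 and 1.64 in those that were not, and at 3 h at 3.04 and 3.20 against 1.12 CPM. The activation term for ICOS in WT was 0.95 (SE 0.21, p = 0.000326, adjusted p = 0.0818, edgeR), and for PDCD1 it was 1.15 (SE 0.28, p = 0.000776, adjusted p = 0.133). By DESeq2 both were called, with adjusted p = 0.0493 for ICOS and 0.00488 for PDCD1. At 1, 3 and 6 h alike, both activated WT libraries were above every unactivated WT library of that time, for ICOS and for PDCD1.

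CD28 (0.15, SE 0.08) and CD274 (0.01, SE 0.15) had small activation terms in WT cells. Thus edgeR called 0 of 4 members for activation in WT cells, beside 0.282% of all genes. These were 46 genes, and 10 to 101 when single libraries were left out. An unadjusted p below 0.05 was met by 2 of 4 members, beside 1345 of all 16327 genes. DESeq2 called 2 members and limma voom 0, while 4 to 315 of all genes were called over the 8 other alternatives, these included. Of 9 tested genes of an activation list, 6 rose in WT cells, among them CD69 by 2.01 on the log2 scale (SE 0.24, adjusted p = 0.00144) and EGR1 by 1.77 (SE 0.25, adjusted p = 0.00598), and the median of the 9 was 1.66 beside 0.0015 for all genes.

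In CD47- cells the activation terms were 0.03 for ICOS (SE 0.21), 0.38 for PDCD1 (SE 0.27), -0.07 for CD28 (SE 0.08) and -0.42 for CD274 (SE 0.18). In the edgeR test 0 of 4 members and 0 of all genes (0%) were called there, with an unadjusted p below 0.05 for 1 member, CD274 (p = 0.0336), and for 491 genes. DESeq2 and limma voom called 0 genes as well. The activation list had a median of 0.36 in this line and 0 of its 9 genes called. In the test of the difference between the lines 1 of the 9 was called, FOS (-1.46, adjusted p = 0.0134). In the line comparison over all libraries 5 of the 9 were lower in CD47- cells and 0 higher (median -1.80), beside 40.4% of all genes called. The difference between the lines in the activation term was -0.92 for ICOS (SE 0.29, p = 0.00665, adjusted p = 0.783) and -0.77 for PDCD1 (SE 0.38, p = 0.0626, adjusted p = 0.783). Here too edgeR called 0 of 4 members, beside 0.00612% of all genes, and DESeq2 and limma voom called 0 members. An unadjusted p below 0.05 was met by 1 member, beside 938 of all 16327 genes.

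TSP1, a secreted ligand of CD47, was added to test signaling through that receptor. The TSP1 terms of the members ranged from 0.01 for ICOS to 0.26 for PDCD1 in WT cells, and from -0.40 for ICOS to -0.05 for CD28 in CD47- cells. No member passed the edgeR test in either line, nor did any gene (0% in WT and 0% in CD47-), and 661 and 530 genes had an unadjusted p below 0.05, none of them a member. DESeq2 called 1 gene in WT and 0 in CD47-, and limma voom 0 in both, again with 0 members. The line difference in the TSP1 term was -0.50 for CD274 (SE 0.23, p = 0.0511, adjusted p = 0.666), with 0 members and 0% of genes called by edgeR, 1 gene by DESeq2 and 0 by limma voom, and 1070 genes at an unadjusted p below 0.05.

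**Figure D3:**
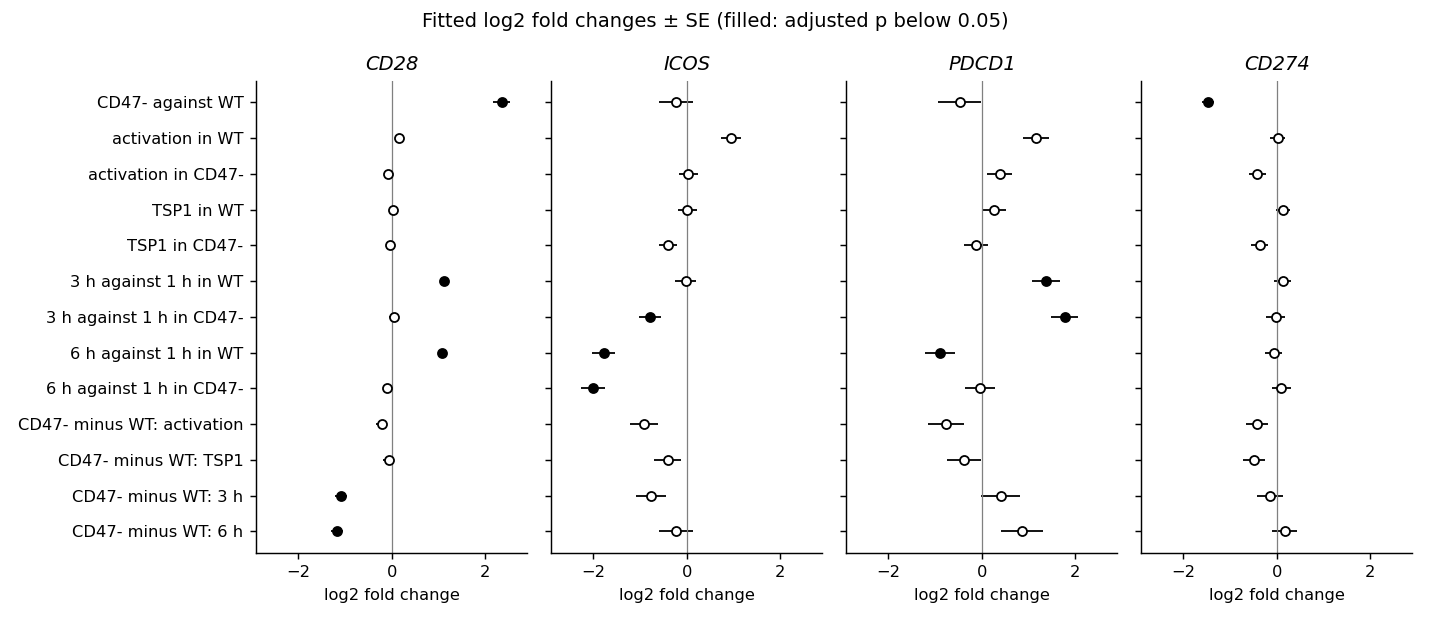
Fitted log2 fold changes (points) with their standard errors (lines) for CD28, ICOS, PDCD1 and CD274 in each comparison, filled where the adjusted p was below 0.05. CD28 and CD274 are filled for the line comparison. For time within a line, filled points are on CD28 in WT only, on PDCD1 and on ICOS.

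The isoforms followed the genes. The main CD28 transcript, CD28-201 (ENST00000324106.9, 4 exons, chr2:203706639-203738912), averaged 43.3 ± 17.0 CPM over WT libraries and 219 ± 17.8 over CD47- ones, 2.35 higher on the log2 scale (SE 0.20, adjusted p = 3.54e-08, edgeR). CD28-202 (ENST00000374481.7, 3 exons, chr2:203706475-203738910) averaged 1.81 ± 1.02 and 10.3 ± 2.25 CPM and was higher by 2.53 (SE 0.40, adjusted p = 9.79e-05). It is the shorter of the pair, 4526 against 4721 bases, with 1 exon fewer and an earlier start.

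CD28-202 made up 4.63% ± 3.41 of CD28 counts in WT and 4.52% ± 1.04 in CD47- cells (SD, n = 10). Its share spanned 0 to 10.2% in WT and 3.08 to 6.37% in CD47- cells. With all times pooled, the difference of -0.112 percentage points was smaller than the spread between libraries (p = 0.923, two-sided permutation test, 100000 resamples, 1 share tested). At 1 h the share was 10.2, 0, 8.16 and 8.31% in the 4 WT libraries and 3.58 to 4.33% in those of CD47-. At 3 and 6 h it was 1.67 to 5.85% in WT and 3.08 to 6.37% in CD47- cells. A change of the share with time was not tested. CD28 was the single member with more than 1 isoform at a mean of at least 10 expected counts.

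CD274-202 (ENST00000381577.4, 7 exons, chr9:5450542-5470554) was at 3.30 ± 0.76 CPM in WT and 1.26 ± 0.54 in CD47- cells. Its log2 fold change was -1.36 (SE 0.36, adjusted p = 0.0131, edgeR), and with a replicate block for the matched pairs -1.45 (adjusted p = 0.0548), which is no longer called. The main ICOS transcript, ICOS-201 (ENST00000316386.11), was at 1.65 ± 1.07 and 1.37 ± 0.90 CPM (adjusted p = 0.811), and PDCD1-201 (ENST00000334409.10) at 9.54 ± 8.84 and 6.67 ± 4.94 CPM (adjusted p = 0.546). Of the 5 member isoforms tested, 3 were called, beside 15.1% of 55450 isoforms.

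Within the CD28, CTLA4 and ICOS cluster CD28 was called between the lines and its tested neighbours were not. ICOS starts 197850 bp after the end of CD28 and did not pass the test, and CTLA4, which lies between them, was hardly counted. Of 4 other tested genes within 500 kb of the cluster, 0 were called by edgeR, beside 40.4% of all genes. Of these 4, 1 had an unadjusted p below 0.05, as had 7875 of all 16327 genes. Whether so few neighbours depart from these numbers was not tested. NBEAL1 had a log2 fold change of 0.16 (adjusted p = 0.0617), CYP20A1 of -0.06 (0.785), ABI2 of -0.03 (0.848) and RAPH1, the closest, of 0.34 (SE 0.42, adjusted p = 0.549). Around CD274, 0 of 6 tested genes were called by edgeR, with 1 at an unadjusted p below 0.05, beside the same numbers for all genes. AL162253.2, which overlaps CD274 so that counting could assign reads of either to the other, was at 0.45 on the log2 scale (SE 0.30, adjusted p = 0.246), and PLGRKT, the nearest that does not overlap it, at 0.17 (adjusted p = 0.178).

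**Figure D4:**
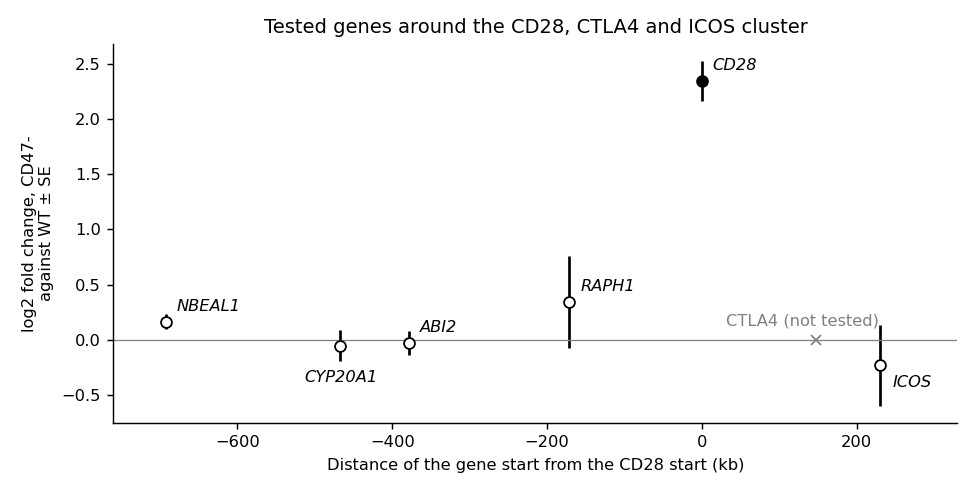
Log2 fold change between the lines (points, with standard errors) of tested genes against the distance of their start from that of CD28 (kb). CD28 alone is filled (adjusted p below 0.05), and the cross marks the position of CTLA4, which was not tested and has no value.

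The other genes of the family and their partners were counted to set these results beside the receptors' ligands. Of 12 listed, 6 were tested, and 4 were higher and 1 lower in the mutant (40.4% of all genes were called), their median being 0.61 on the log2 scale beside -0.01 for all genes. ICOSLG, the ligand of ICOS, was at 0.261 ± 0.373 CPM for WT and 1.26 ± 0.69 CPM for the mutant (log2 fold change 2.25, SE 0.56, adjusted p = 0.00262, edgeR). It passed the low-count filter through the mutant libraries, where it is high, while CD80 and CD86, with lower means in the mutant, did not pass, so the count of higher and lower genes depends on the filter. TNFSF14, which binds the BTLA ligand TNFRSF14, was higher by 1.95 (1.24 ± 0.72 and 4.81 ± 1.16 CPM, SE 0.25, adjusted p = 1.32e-06) and TNFRSF14 itself by 0.65 (9.81 ± 3.16 and 15.4 ± 6.47 CPM, SE 0.22, adjusted p = 0.0236). TMIGD2, a CD28 family receptor for HHLA2, was higher by 0.57 (9.71 ± 2.62 and 14.4 ± 2.98 CPM, SE 0.15, adjusted p = 0.00500).

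NCR3LG1, a B7 protein recognized by an activating receptor of natural killer cells, was higher in WT (52.9 ± 9.82 CPM) than in the mutant (29.1 ± 6.70 CPM, log2 fold change -0.86, SE 0.13, adjusted p = 9.35e-06). VSIR, the gene of VISTA, was at 20.9 ± 6.70 and 15.98 ± 3.64 CPM and was not called (-0.39, SE 0.17, adjusted p = 0.0725). The ligands of CD28 and CTLA4 were too scarce to test in these T cells. CD80 was at 0.180 ± 0.142 and 0.0437 ± 0.0464 CPM, CD86 at 0.736 ± 0.688 and 0.189 ± 0.180 CPM, and PDCD1LG2, VTCN1, HHLA2 and CD160 were below 0.2 CPM on average in both lines.

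**Figure D5:**
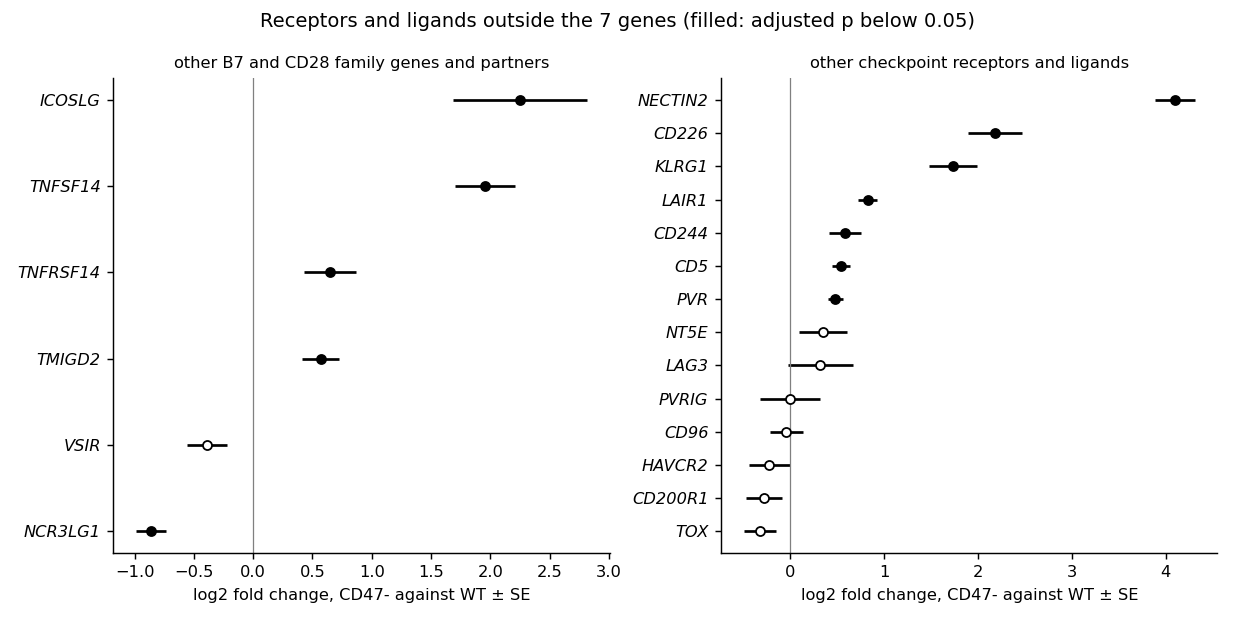
Log2 fold change between the lines with standard errors for tested genes of the family and its partners (left) and for other checkpoint receptors and ligands (right), filled where the adjusted p was below 0.05. Most filled points lie to the right of 0, with NCR3LG1 to the left.

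Of 17 other checkpoint receptors and ligands listed, 14 were tested, and 7 were higher and 0 lower, near the 40.4% of all genes called. The median was 0.41 on the log2 scale, and among all genes 3229 were higher and 3367 lower. NECTIN2 and KLRG1 passed the low-count filter through the mutant libraries, where they are high, so the counts, the median and the calls of this pair depend on the filter. NECTIN2, a ligand of TIGIT and CD226, was at 0.450 ± 0.196 CPM in WT and 7.79 ± 1.53 in CD47- cells (log2 fold change 4.10, SE 0.21, adjusted p = 5.12e-13). CD226, an activating receptor for the same ligands, was at 73.5 ± 40.1 and 333 ± 54.7 CPM (2.18, SE 0.29, adjusted p = 2.15e-06). KLRG1, at 0.393 ± 0.159 and 1.33 ± 0.49 CPM, was higher by 1.74 (adjusted p = 8.20e-06) and LAIR1 by 0.83 (adjusted p = 6.39e-07).

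CD226 also rose with time in WT cells. Its log2 fold change there was 1.88 at 3 h (SE 0.10, adjusted p = 6.22e-09) and 2.04 at 6 h (SE 0.10, adjusted p = 5.41e-10), against 0.48 and 0.45 in CD47- cells (adjusted p = 0.00130 and 0.00102, edgeR). The interaction was -1.40 at 3 h (SE 0.14, adjusted p = 4.72e-05) and -1.59 at 6 h (SE 0.14, adjusted p = 3.24e-06).

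Of 23 genes that carry the signal from CD28, 22 were tested, and 9 were higher and 3 lower in CD47- cells beside 40.4% of all genes called, with a median of 0.15. GRAP2, an adaptor that binds the CD28 tail, was higher by 1.69 (SE 0.22, adjusted p = 1.13e-06), the transcription factor NFATC1 by 1.19 (SE 0.19, adjusted p = 3.12e-05) and PIK3CD, a catalytic subunit of phosphoinositide 3-kinase, by 1.02 (SE 0.08, adjusted p = 6.19e-10). FLNA, the actin-binding protein filamin A, was lower (-0.74, SE 0.14, adjusted p = 0.000122).

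Of 10 partners of the inhibitory receptors and of their transport, 5 were higher and 1 lower beside the same 40.4%, with a median of 0.15. TRAT1, an adaptor that takes part in the surface transport of CTLA4, was higher by 1.34 (SE 0.17, adjusted p = 1.46e-06), CMTM4, which stabilizes PD-L1, by 0.82 (SE 0.26, adjusted p = 0.0161), the phosphatase PTPN6 by 0.69 (SE 0.15, adjusted p = 0.00101) and DEF6, which acts in the recycling of CTLA4, by 0.56 (SE 0.11, adjusted p = 0.000318). Of 7 interferon gamma pathway genes that act on CD274, 1 was higher (IFNGR2, 0.50, SE 0.14, adjusted p = 0.00529) and 1 lower (STAT3, -0.26, SE 0.06, adjusted p = 0.00220), and the median was -0.0031.

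Correlations between the members across libraries were low to moderate. On log2 CPM centered on each line (prior count 2, 20 libraries), the Pearson r between members lay between -0.15 (CD28 and ICOS) and 0.41 (ICOS and PDCD1). The 3 genes with the highest r to CD28 were CLTC (0.936), CD59 (0.927) and ANTXR2 (0.924). For ICOS they were RNF19A (0.963), FRG2FP (0.955) and CD69 (0.954), the last an early activation marker. For PDCD1 they were ZYX (0.966), VGF (0.939) and HIC1 (0.938). CD274 had no close match, the highest being AL358472.5 at 0.718. With a pseudocount of 1 in place of this prior count, PHF19 took the place of ANTXR2, TNF that of FRG2FP and DDR1 that of VGF. Libraries share their time point and treatment in these values, which are a description only.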

How the data were processed

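RNA was sequenced from 20 cultures, 10 of WT and 10 of CD47- Jurkat cells. Per the submitters' processing notes and the study's methods, trimming used cutadapt 1.18, alignment STAR 2.4.2a (GRCh38) and quantification RSEM 1.3.3 with GENCODE 36. The authors deposited the expected counts of genes and isoforms without normalization. Whether RSEM was run with strand is not given in the sources used here. Each table holds 2 columns of no sample of this study, which were not used. The members were matched by gene symbol, and members and gene lists were chosen with earlier results of these data known.

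Expected counts were rounded for edgeR 4.0.16 (R 4.3.3), which was fitted to all genes. The filterByExpr function, grouped by line, left 16327 genes (minimum count 10, total 15). Library sizes were scaled with TMM, and p-values of quasi-likelihood tests over these genes received Benjamini-Hochberg adjustment. The line comparison used all libraries without further terms. A second model with 10 coefficients (level, activation, TSP1, 3 h and 6 h in each line) gave the other comparisons, and interactions tested differences between the lines. Isoforms were tested as genes were. The alternatives were DESeq2 1.42.0, limma 3.58.1 (voom with quantile normalization), other scaling, filters and models, and each library left out.

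The same treatment and time in both lines carry the same number. The deviations of matched libraries from their line means correlated above 0.1 in 10 of 10 pairs (r from 0.120 to 0.488, median 0.409), by which rule they were taken as pairs, although only 1 of 10 correlated best with its own partner. The pairing comes from the labels of treatment and time.

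Positions and transcript lengths were taken from GENCODE 44. For levels per length, 219802 of 232184 isoforms had a length, holding at least 93.9% of counts in each library. All 7 members were found in the RefSeq promoter table, and 4 promoters are printed. The genes named are the members, CD47, the genes of fixed lists (every gene of the family list with its level, otherwise up to 4 called genes with the greatest change between the lines), up to 3 called genes near each locus, and the 3 genes most like each tested member. Markers and genes named for other comparisons were chosen after their values were seen. The edgeR fits of the line comparison and of 6 h against 1 h in WT were checked on simulated counts with known changes. The simulated counts had the same spread for all genes and no other effects of treatment or time. The permutation test was checked on simulated shares. The other comparisons and the isoform fits were not simulated.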

Additional observations from a re-analysis of the deposited data

Results flagged for a closer look

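CD28 met the test of a difference between the lines in its response to time. The interaction of line and time was -1.08 at 3 h and -1.18 at 6 h on the log2 scale (edgeR, all 20 libraries), and every WT library at 3 or 6 h was above every WT library at 1 h.

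In WT cells CD274 stood apart in 1 library, CD3+CD28+TSP1 at 3 h, with 5.63 CPM against 3.72 to 4.41 CPM in the other 9. CD276 stood apart in the CD3+CD28+TSP1 library at 3 h of CD47- cells, with 0.156 CPM, which is 3 counts. These came from 14 groups examined, 7 genes in each of the lines. The rule marks by chance about 1 in 20 groups of normally distributed values from like libraries. Here the libraries differ in treatment and time, and CD276 was at 0 in 5 CD47- libraries, so that rate need not hold.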

How the results depend on the processing

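CD28 and CD274 kept their direction and their call between the lines in all 12 alternatives each and in all 20 fits that left out 1 library. The log2 fold change of CD28 ranged from 1.94 (6 h alone) to 3.16 (1 h alone) and that of CD274 from -1.68 to -1.27. With the replicate block for the matched pairs these were 2.44 (adjusted p = 2.90e-08) and -1.47 (adjusted p = 3.46e-07), and beyond CD274-202 the block changed no other call of the line comparison.

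The count of members called moved as follows, and the causes were not tested. For activation in WT it was 2 with DESeq2 and 2 without a low-count filter, against 0. For 3 h in CD47- cells it was 1 with at least 1 CPM in every library, against 2, and 1 to 2 when leaving out single libraries. With time terms shared by the lines it stayed at 2, with CD28 gained (0.52, adjusted p = 0.0218) and ICOS lost (-0.40, adjusted p = 0.0910). For 6 h in WT cells it was 2 with that filter, with shared time terms and when leaving out some libraries, against 3. For 6 h in CD47- cells it was 0 with that filter and 2 with time terms shared by the lines, against 1. Without a filter, 1 member was called for the difference in activation, against 0, and 2 for the difference at 6 h, against 1. Counts over all genes moved further in some comparisons, from 6596 to between 2706 and 9867 for the lines and from 46 to between 4 and 315 for activation in WT. Without a filter, 120 genes were called for activation in CD47-, 156 and 168 for TSP1 in WT and CD47-, and 294 and 409 for the differences in activation and TSP1, against 0, 0, 0, 1 and 0. The stricter filter called 1 member isoform, against 3, and tests fewer of them.

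Values that changed sign were all uncalled in the fits reported. In the line comparison ICOS was 0.42 in unactivated pairs and 0.15 at 1 h alone, PDCD1 0.14 in unactivated pairs and 0.028 at 6 h alone, and ICOS-201 0.17 with limma voom. With a coefficient for each treatment, ICOS was -0.054 for activation in CD47-, PDCD1 0.17 for TSP1 in CD47-, ICOS 0.029 at 3 h in WT and PDCD1 0.14 at 6 h in CD47-. With time terms shared by the lines, ICOS was -0.041 for activation in CD47-, CD274 0.059 at 3 h in CD47- and 0.0044 at 6 h in WT, and CD28 0.45 at 6 h in CD47- (adjusted p = 0.0347). ICOS was -0.019 with limma voom and -0.00017 in the line alone for TSP1 in WT, and 0.0069 in the line alone at 3 h in WT. CD274 was 0.011 with upper-quartile factors at 3 h in CD47-, and CD28 0.0034 with limma voom at 6 h in CD47-. The share of CD28-202 differed by 1.49 percentage points (CD47- minus WT) in activated pairs and by -2.52 in unactivated pairs, against -0.112 in all.

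Leaving out single libraries gave these ranges. Between the lines, PDCD1 spanned -0.76 to -0.10 and ICOS -0.37 to -0.096, uncalled throughout. For activation, CD274 in WT spanned -0.10 to 0.10, CD28 in WT 0.040 to 0.24 and CD28 in CD47- -0.12 to -0.0021. Over the other alternatives the CD28 term in WT spanned 0.14 to 0.31. The activation term of ICOS in CD47- spanned -0.090 to 0.15 and that of PDCD1 in CD47- 0.11 to 0.69. The difference between the lines in activation spanned -1.04 to -0.42 for PDCD1 and -0.31 to -0.11 for CD28. For TSP1, PDCD1 in WT spanned 0.097 to 0.74, the difference between the lines -0.86 to -0.092 for PDCD1 and -0.58 to -0.38 for CD274, CD28 in WT spanned -0.038 to 0.11, ICOS in WT -0.087 to 0.13, CD28 in CD47- -0.10 to 0.017 and PDCD1 in CD47- -0.40 to 0.16. At 3 h, CD274 in WT spanned -0.024 to 0.27, ICOS in WT -0.17 to 0.22, CD274 in CD47- -0.14 to 0.087 and CD28 in CD47- -0.054 to 0.13. At 6 h, CD274 in CD47- spanned -0.016 to 0.38 and PDCD1 in CD47- -0.21 to 0.34. The differences between the lines at 3 h spanned -0.30 to 0.019 for CD274 and -0.0032 to 0.95 for PDCD1. Those at 6 h spanned -0.36 to -0.049 for ICOS and 0.052 to 0.46 for CD274. The difference in the share of CD28-202 spanned -0.626 to 0.505 percentage points. Using the longest transcript of each gene, CD28 was at 63.1 TPM in CD47- cells. The scarce genes moved further by ratio. BTLA was at 0.106 TPM in WT and 0.116 in CD47- cells, CD276 at 0.00734 and 0.0158 and CTLA4 at 0.0195 and 0.00763. Depth limits CTLA4 and CD276, with 0 to 3 counts per library, and BTLA, with 2 to 15.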

Other observations

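Some genes near PDCD1, BTLA and CD276 were called between the lines. Within 500 kb of PDCD1, 16 genes were tested, 1 was higher and 3 lower in CD47- cells. BOK, a member of the BCL2 family, was higher by 1.66 on the log2 scale (SE 0.35, adjusted p = 0.000584, edgeR), but with means of 0.341 CPM (WT) and 1.10 CPM (CD47-) it passed the low-count filter through the mutant libraries. FARP2 was lower (-0.39, adjusted p = 5.52e-05), and so was DTYMK (-0.28, adjusted p = 0.0206). Within 500 kb of BTLA, 4 of 8 tested genes were lower and 0 higher, among them GCSAM, a signaling protein of germinal center B cells (-1.88, SE 0.31, adjusted p = 3.12e-05), PHLDB2 (-1.48, SE 0.16, adjusted p = 1.40e-07) and SLC35A5 (-0.35, adjusted p = 0.00284). Around CD276, 2 of 9 were lower, NEO1 (-0.59, adjusted p = 7.26e-05) and NPTN (-0.33, adjusted p = 0.0311). These counts stand beside 40.4% of all genes called between the lines. Between the loci the counts were not compared by a test.

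Of 7 interferon gamma pathway genes that act on CD274, 5 were lower and 1 higher at 6 h than at 1 h in WT, and 5 were lower and 0 higher in CD47- cells. In the same comparisons 51.1% and 52.4% of all genes were called in either direction, and CD274 was not. The medians of the 7 were -0.31 and -0.49 beside -0.01 for all genes. The kinase gene JAK1 had log2 fold changes of -0.34 in WT (adjusted p = 0.000179) and -0.60 in CD47- cells (adjusted p = 5.23e-07). IRF1, a transcription factor that drives CD274, was higher at 6 h in WT (0.24, adjusted p = 0.00525).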
